A study of Mus musculus with 3 samples.

Results

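The 40 genes described here belong to the cell division cycle. They were chosen by symbol as a module, 40 of the 32285 genes in the count matrices, and all 40 were found there. By textbook role, 15 serve S phase (Pcna, Mcm2 to Mcm7, Tyms, Rrm1, Rrm2, Tk1, Pclaf, Ccne1, Hist1h1b and Hist1h2ap) and 20 serve G2 and mitosis (Mki67, Top2a, Birc5, Cdk1, Ube2c, Ccnb1, Ccnb2, Ccna2, Tpx2, Nusap1, Cdc20, Cenpa, Cenpe, Cenpf, Aurka, Aurkb, Plk1, Bub1, Kif11 and Prc1). The other 5 (Hmgb2, Stmn1, H2afz, Tuba1b and Tubb5) are abundant in dividing cells but are used outside division too, and are called general members. Their transcripts were counted in the colon of mice that had been germ-free, that is, without microbes of their own. The series holds 3 single-cell libraries, 1 from mice colonized with a BT mutant, 1 from mice colonized with wild-type BT (BT WT), and 1 from mice given phosphate-buffered saline (PBS). Neither the full name of BT nor the mutated gene, the time since colonization, the age and strain of the mice or the number of animals behind a library is given in the labels. With 1 library per group, a difference between libraries has no replicate check and is given without a p-value.

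Cells were captured in droplets, where each transcript receives a unique molecular identifier (UMI) and each cell a barcode. The BT mutant, BT WT and PBS libraries held 54943483, 55436776 and 42003444 UMIs. Barcodes with at least 300 genes and at most 25% mitochondrial UMIs were kept, which left 6138, 7070 and 3198 cells with a median of 3355, 3845 and 3671.5 UMIs. At most 13 kept barcodes were shared by any pair of libraries. Marker genes then placed cells in classes. B cells carried at least 2 UMIs of 6 B-cell genes and no Epcam, and numbered 822, 1029 and 582 in the 3 libraries. T cells carried at least 2 UMIs of 5 T-cell genes and no Epcam, and numbered 117, 284 and 109. Cells with Epcam, the epithelial adhesion molecule, and at most 1 lymphocyte UMI numbered 3976, 4548 and 1369. The classes carried the markers that did not gate them: 5 other epithelial genes (Krt8, Krt18, Krt19, Cldn7 and Cdh1) summed to 9888, 7346 and 7453 UMIs per 1000000 (CPM) in Epcam cells of the BT mutant, BT WT and PBS libraries. The same 5 genes summed to 469, 377 and 522 CPM in B cells and to 439, 308 and 372 CPM in T cells, and their part in the values below was not tested. Cells outside every gate numbered 922, 1049 and 1050.

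A cell that commits to division raises cyclin E and the E2F factors, which switch on the genes for nucleotide supply, helicase loading and histones that S phase needs. Genes for the spindle, the centromere and the proteins that drive and end mitosis follow in G2, many of them through CCAAT boxes bound by NF-Y and through a second element, the cell cycle genes homology region (CHR). In the colon, division takes place at the base of the crypts and stops as cells move up to the surface, while B cells divide in germinal centres of lymphoid follicles and T cells divide after activation.

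The start-site windows of 4 members are printed as examples. They were picked, within each phase, for the most matches to the sequences named below, with ties settled by symbol. The contrast seen in them is therefore partly a result of the choice. RefSeq windows of the GRCm38.p6 build, from 250 bases before to 50 after the start, matched 32 of the 40 members. Matching was by gene ID, or by symbol where no ID matched, and the window nearest the annotated start was taken. Mcm3 and Mcm5, which encode subunits of the replicative helicase, are the S-phase examples, at chr1:20820263-20820562 on the minus strand and chr8:75109259-75109558 on the plus strand. Top2a, the topoisomerase that untangles sister chromosomes, and Ube2c, the ubiquitin-conjugating enzyme of the anaphase-promoting complex, are the G2/M examples, at chr11:99024140-99024439 on the minus strand and chr2:164769679-164769978 on the plus strand. Each is printed 5′ to 3′ along the gene, and capitals mark matches on either strand to CCAAT, to TTTGAA (a CHR-type sequence) and to TTTCCCGC or TTTGGCGC (E2F-type sequences).
Mcm3: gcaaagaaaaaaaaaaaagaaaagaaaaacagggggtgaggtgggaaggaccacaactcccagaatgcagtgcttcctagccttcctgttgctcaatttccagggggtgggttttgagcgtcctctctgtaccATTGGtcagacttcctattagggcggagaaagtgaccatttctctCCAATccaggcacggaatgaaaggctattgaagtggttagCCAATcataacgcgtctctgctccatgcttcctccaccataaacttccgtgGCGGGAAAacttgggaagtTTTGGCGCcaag
Mcm5: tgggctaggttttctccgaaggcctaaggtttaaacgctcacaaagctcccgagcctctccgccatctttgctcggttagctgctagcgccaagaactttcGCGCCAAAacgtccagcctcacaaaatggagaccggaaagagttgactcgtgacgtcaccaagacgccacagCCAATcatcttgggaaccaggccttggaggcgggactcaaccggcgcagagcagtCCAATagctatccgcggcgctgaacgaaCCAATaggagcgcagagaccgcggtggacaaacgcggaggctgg
Top2a: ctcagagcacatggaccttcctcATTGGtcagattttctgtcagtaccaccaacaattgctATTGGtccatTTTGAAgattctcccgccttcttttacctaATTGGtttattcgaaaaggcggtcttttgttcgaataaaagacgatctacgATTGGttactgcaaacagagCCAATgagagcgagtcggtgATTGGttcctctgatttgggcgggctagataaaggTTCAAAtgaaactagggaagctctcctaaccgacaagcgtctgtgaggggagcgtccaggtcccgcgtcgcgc
Ube2c: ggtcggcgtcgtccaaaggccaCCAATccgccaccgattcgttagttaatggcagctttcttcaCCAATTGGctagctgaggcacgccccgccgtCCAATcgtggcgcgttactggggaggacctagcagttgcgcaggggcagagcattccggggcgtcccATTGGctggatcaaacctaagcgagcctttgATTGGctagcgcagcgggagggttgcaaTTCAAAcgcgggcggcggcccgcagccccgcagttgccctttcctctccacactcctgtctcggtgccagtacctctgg
The Ube2c window holds 1 run of capitals in which CCAAT on the plus strand, 186 bases before the start, overlaps CCAAT on the minus strand, 183 bases before it. CCAAT occurred in 15 of the 17 matched G2/M members, in 9 of 12 S members and in 37.4% of all 32851 windows. TTTGAA occurred in 12 of 17 G2/M members, in 1 of 12 S members and in 17.9% of all windows. An E2F-type sequence occurred in 5 of 12 S members, in 0 of 17 G2/M members and in 1.56% of all windows. CCAAT and TTTGAA stood in the same window in 12 of 17 G2/M members, against 1 of 12 S members and 6.95% of all windows. A match is a run of letters and not a measured site.

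S-phase and G2/M members were distributed differently over the classes. The 15 S members together made up 379, 665 and 458 CPM in B cells of the BT mutant, BT WT and PBS libraries, 320, 359 and 481 CPM in T cells, and 246, 172 and 281 CPM in Epcam cells. In each library both lymphocyte classes lay above Epcam cells. The 20 G2/M members made up 208, 215 and 115 CPM in B cells, 82.9, 111 and 631 CPM in T cells, and 168, 203 and 274 CPM in Epcam cells. For these B cells lay highest and T cells lowest in both colonized libraries, while T cells lay highest in PBS, where leaving out 1 cell brought them to 107 CPM. The B-cell sums include Cenpa, which alone held 79.6 to 88.6 CPM there, against 13.0 to 18.1 CPM in Epcam cells. In the test below Cenpa was the only member called higher in B than in Epcam cells among 17 G2/M members tested, and 5 were lower. Both counts lie below the shares of all genes, 30.9% higher and 37.0% lower. Fibroblast marker cells, which serve as a background, held 207, 209 and 228 CPM of the S members and 12.7, 19.1 and 99.8 CPM of the G2/M members. Of the PBS fibroblast G2/M UMIs, 85.1% came from 1 cell. In Epcam cells the S members lay above the fibroblast level in the BT mutant and PBS libraries and below it in BT WT. Without Hist1h1b and Hist1h2ap they lay below it in every library. Epcam cells then held 168, 121 and 190 CPM in the BT mutant, BT WT and PBS libraries, against 197, 205 and 217 CPM. The G2/M members of Epcam cells lay above the fibroblast level in every library.

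**Figure D1:**
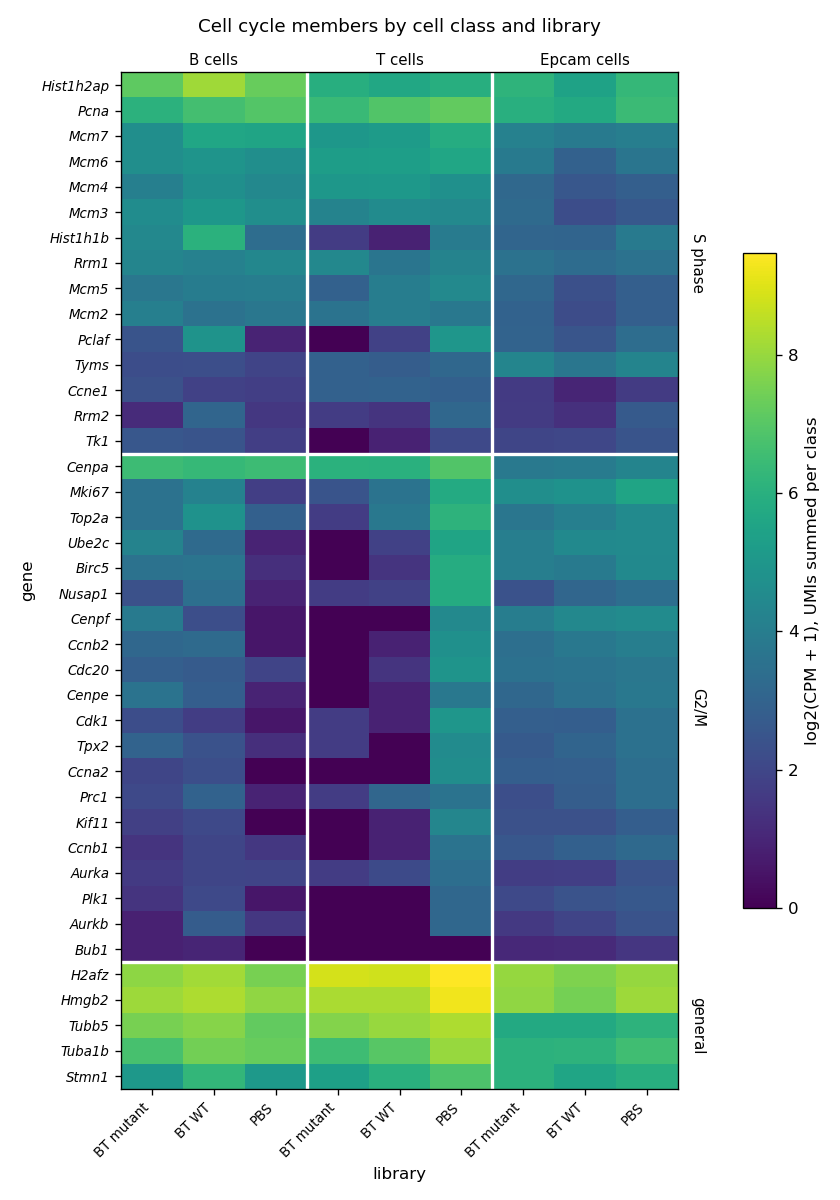
Level of each of the 40 members (log2 of CPM + 1, colour scale; rows are genes grouped by phase) in B, T and Epcam cells of the BT mutant, BT WT and PBS libraries. Cenpa stands out among the G2/M members in B and T cells, and most G2/M members are brighter in the PBS T-cell column than in the other T-cell columns, where 1 cell held 331 of 394 G2/M UMIs.

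Of the members with most UMIs in each class, given here, only Hist1h2ap, a histone gene of S phase, is not a general one. In B cells the 3 with most UMIs by mean over the libraries were Hmgb2, an architectural chromatin protein, with 273, 315 and 237 CPM in the BT mutant, BT WT and PBS libraries, the histone variant gene H2afz with 231, 282 and 186 CPM, and Hist1h2ap with 137, 279 and 154 CPM. In T cells H2afz had 459, 444 and 708 CPM, Hmgb2 had 309, 305 and 609 CPM, and the beta-tubulin gene Tubb5 had 211, 255 and 319 CPM. In Epcam cells H2afz had 249, 199 and 247 CPM, Hmgb2 had 239, 178 and 268 CPM, and the alpha-tubulin gene Tuba1b had 66.6, 69.0 and 93.8 CPM. H2afz and Tubb5 were higher in T cells than in Epcam cells of every library, without overlap, and fibroblast marker cells held 202, 239 and 180 CPM of Tubb5, above the 185, 216 and 147 CPM of B cells. Levels here are compared for 1 gene across cells, since these 3′ counts are not scaled to gene length. H2afz, Tuba1b, Tubb5 and Hist1h2ap have near-identical copies elsewhere in the genome, among which reads may be split, and replication histones such as Hist1h1b and Hist1h2ap mostly lack the poly(A) tail by which RNA was captured.

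B cells were set against Epcam cells to ask which phases distinguish lymphocytes from epithelium. UMIs were summed per library and class and compared by edgeR's quasi-likelihood test with library as a term, so the 3 libraries served as replicates although they differ in treatment. Of the 40 members, 37 passed the filter on low counts (Aurka, Bub1 and Kif11 did not), 13 were higher in B cells and 6 were lower at an adjusted p under 0.05. Of all 11241 genes tested, 30.9% were higher and 37.0% lower. Of the 15 S members, 10 were higher (Pcna, Rrm1, Mcm2 to Mcm7, Hist1h1b and Hist1h2ap) and 1, Tyms, was lower. Higher here means above Epcam cells. Rrm1 had 16.8 to 19.7 CPM in B cells, below each of its fibroblast marker values given later. Mcm4 had 16.1 to 25.2 CPM, a range that holds its fibroblast marker values. For Pcna B cells lay above that background in each library, and for the other higher S members it is not given. Of the 17 G2/M members tested, 1, Cenpa, was higher and 5 were lower, and both counts lie below the shares of all genes. The median log2 fold change was 1.21 over the S members and -1.05 over the G2/M members tested, against -0.12 over all genes.

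Cenpa, the histone H3 variant that marks centromeres, showed the largest rise. It had 88.6, 79.6 and 88.2 CPM in B cells of the BT mutant, BT WT and PBS libraries, against 13.0, 14.2 and 18.1 CPM in Epcam cells and 2.30, 2.60 and 1.98 CPM in fibroblast marker cells. The classes did not overlap, and the log2 fold change of B over Epcam cells was 2.48 ± 0.19 (SE, adjusted p = 1.93e-09 by edgeR). Mcm3 had 23.6, 31.1 and 24.4 CPM in B cells and 8.71, 3.70 and 5.09 CPM in Epcam cells, a log2 fold change of 2.19 ± 0.29 (adjusted p = 3.05e-06). Again no B-cell value fell among the Epcam values. Hist1h1b, a linker histone gene, had 20.7, 65.7 and 9.39 CPM in B cells and 7.58, 7.28 and 13.6 CPM in Epcam cells. The classes overlapped, since the PBS B cells lay below the PBS Epcam cells, and the log2 fold change of 1.64 ± 0.51 (adjusted p = 0.00896) became 0.49 (adjusted p = 0.335) without the BT WT library. Pcna, the sliding clamp of DNA polymerase, had 66.6, 98.4 and 123 CPM in B cells, 61.5, 53.1 and 87.6 CPM in Epcam cells and 65.7, 91.1 and 89.9 CPM in fibroblast marker cells. Its log2 fold change of 0.44 ± 0.18 (adjusted p = 0.0407) was small, and 7 alternatives ended the call. Tubb5 and Tuba1b were higher too, at 1.63 ± 0.21 (adjusted p = 1.75e-06) and 0.87 ± 0.21 (adjusted p = 0.00122).

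Among the members that were lower in B cells, Tyms makes thymidylate, and it had 3.72, 3.88 and 2.82 CPM in B cells of the BT mutant, BT WT and PBS libraries against 18.9, 12.0 and 18.2 CPM in Epcam cells. The log2 fold change was -2.22 ± 0.32 (adjusted p = 6.58e-06 by edgeR), and B cells also lay below the 4.03, 8.67 and 8.89 CPM of fibroblast marker cells. Cenpf, a kinetochore protein gene, had 13.7, 3.88 and 0.469 CPM in B cells and 14.97, 20.6 and 23.0 CPM in Epcam cells, a log2 fold change of -1.75 ± 0.61 (adjusted p = 0.0172). Cdk1, the kinase that drives entry into mitosis, had 3.72, 2.26 and 0.469 CPM in B cells and 6.34, 6.07 and 10.7 CPM in Epcam cells, also -1.75 ± 0.61 (adjusted p = 0.0174). For both, each B-cell value lay below the Epcam values of all libraries. Mki67, which coats mitotic chromosomes and is the usual proliferation marker, had 10.8, 17.5 and 2.35 CPM in B cells and 24.7, 27.6 and 45.3 CPM in Epcam cells, a log2 fold change of -1.54 ± 0.46 (adjusted p = 0.00678). Ccnb1, a mitotic cyclin, and Cdc20, an activator of the anaphase-promoting complex, were the other lower members. Top2a had 10.8, 27.2 and 6.57 CPM in B cells and 12.1, 16.2 and 22.3 CPM in Epcam cells, which overlapped, and did not pass (-0.13 ± 0.46, adjusted p = 0.812). Ccne1, cyclin E1, had 4.14, 2.59 and 2.35 CPM in B cells and 2.04, 0.954 and 2.11 CPM in Epcam cells and did not pass either (0.85 ± 0.45, adjusted p = 0.108).

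The number of lower members changed with the processing. The shares of all genes under these alternatives are not given, so whether the members or genes in general moved cannot be told from the counts. DESeq2 called 2, a fit without the library term 3, one without the filter on low counts 15 and one without the BT WT library 12. Without the 5% of cells with most UMIs in each library, 1 member was lower, and with every cell thinned to 1000 UMIs 0 were, whereas at a mitochondrial limit of 10% 19 were lower and 7 higher. Cenpf did not pass without BT WT (log2 fold change -1.43, adjusted p = 0.0586 by edgeR), and Cdk1 did not without PBS (adjusted p = 0.0608). Epcam cells carried a median of 16.5%, 16.6% and 10.1% mitochondrial UMIs in the BT mutant, BT WT and PBS libraries and B cells 4.55%, 5.26% and 4.80%.

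**Figure D2:**
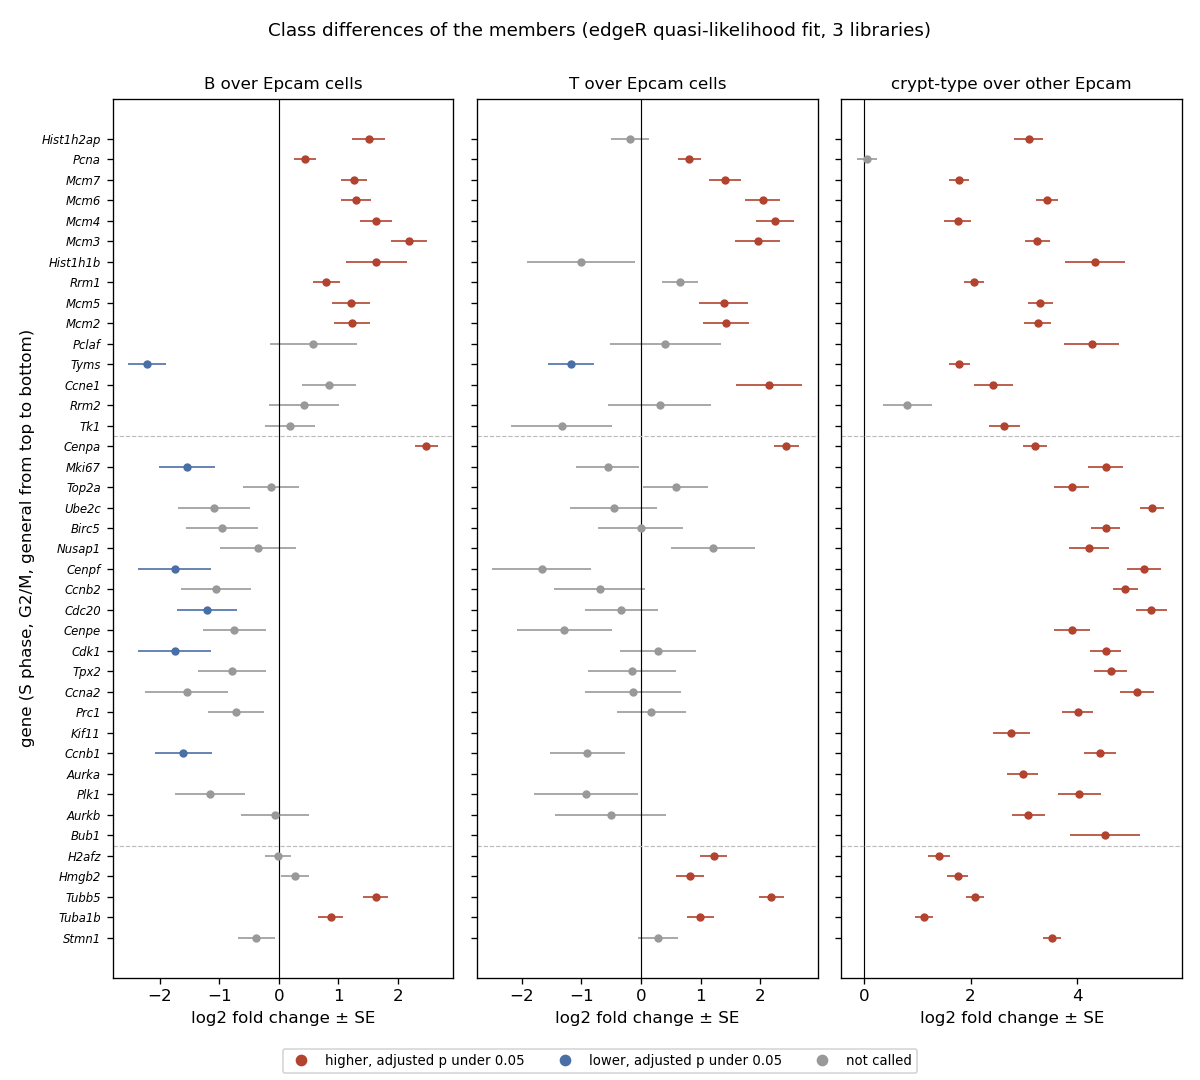
Log2 fold change of each member tested, with its standard error as a bar, for B over Epcam cells, T over Epcam cells and crypt-type over other Epcam cells. Red points were higher and blue points lower at an adjusted p under 0.05, grey points did not pass, and 13, 13 and 38 members are red in the 3 panels.

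T cells were set against Epcam cells in the same fit. Of the 37 members tested, 13 were higher in T cells and 1 was lower, where 26.4% of all genes were higher and 34.5% lower. The higher members comprised 8 S members, Cenpa, and 4 general members (Hmgb2, H2afz, Tuba1b and Tubb5). The median log2 fold change was 0.81 over the S members and -0.33 over the G2/M members tested, against -0.16 over all genes. Cenpa had 65.0, 63.0 and 117 CPM in T cells of the BT mutant, BT WT and PBS libraries and 13.0, 14.2 and 18.1 CPM in Epcam cells, a log2 fold change of 2.43 ± 0.21 (adjusted p = 1.62e-08 by edgeR). Mcm4, another helicase subunit gene, had 31.4, 32.4 and 25.6 CPM in T cells and 8.19, 4.999 and 6.24 CPM in Epcam cells (2.24 ± 0.32, adjusted p = 7.41e-06). Neither gene overlapped between the classes. Fibroblast marker cells held 21.3, 17.3 and 19.8 CPM of Mcm4, which is below T cells and above Epcam cells. Tubb5 rose by 2.18 ± 0.22 on the log2 scale (adjusted p = 9.32e-08).

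Ccne1, which brings cells into S phase, had 6.72, 6.82 and 6.41 CPM in T cells of the BT mutant, BT WT and PBS libraries and 2.04, 0.954 and 2.11 CPM in Epcam cells (log2 fold change 2.14 ± 0.55, adjusted p = 0.00267 by edgeR). The 3 T-cell values lay close together, although they stood for 3, 8 and 4 UMIs. The gene did not pass without the BT WT library (1.60, adjusted p = 0.0790) or at a mitochondrial limit of 10% (1.16, adjusted p = 0.0705), nor was it called with cells thinned to 1000 UMIs. Pcna had 85.1, 118 and 146 CPM in T cells and 61.5, 53.1 and 87.6 CPM in Epcam cells (0.81 ± 0.20, adjusted p = 0.00182), with an overlap between libraries but a higher T-cell value within each. Tyms was the lower member, with 6.72, 5.96 and 8.01 CPM in T cells and 18.9, 12.0 and 18.2 CPM in Epcam cells (-1.18 ± 0.39, adjusted p = 0.0135). It did not pass without the PBS library, without the BT mutant library or without the 5% of cells with most UMIs. Mki67 had 4.48, 11.1 and 54.5 CPM in T cells and 24.7, 27.6 and 45.3 CPM in Epcam cells, and Top2a had 2.24, 12.8 and 68.9 CPM in T cells and 12.1, 16.2 and 22.3 CPM in Epcam cells. Neither passed (-0.56 ± 0.53 and 0.58 ± 0.54, adjusted p = 0.368 for each), and in both the PBS T cells stood far above the T cells of the colonized mice. Without the PBS library 12 members were lower in T cells instead of 1, Mki67 among them (log2 fold change -1.44, adjusted p = 0.00114 by edgeR). The share of all genes without that library is not given.

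B cells differed from T cells in 3 of the 37 members tested. Hist1h2ap and Hist1h1b were higher and H2afz was lower in B cells, where 9.33% of all genes were higher and 9.11% lower. The median log2 fold change was -0.55 over the members tested and 0.06 over all genes. Hist1h2ap had 137, 279 and 154 CPM in B cells of the BT mutant, BT WT and PBS libraries and 60.5, 50.3 and 60.9 CPM in T cells, without overlap (1.69 ± 0.32, adjusted p = 0.000667 by edgeR). Hist1h1b had 2.24, 0.852 and 14.4 CPM in T cells, against the B-cell values above, and overlapped (2.65 ± 0.84, adjusted p = 0.0336); it did not pass without BT WT (adjusted p = 0.577) or without the BT mutant library (adjusted p = 0.0863). H2afz fell by 1.24 ± 0.23 on the log2 scale (adjusted p = 0.000518). Cenpa, high in both classes, gave 0.05 ± 0.21 (adjusted p = 0.917). Mki67 and Top2a did not pass (-0.98 ± 0.62, adjusted p = 0.326, and -0.71 ± 0.59, adjusted p = 0.471), nor did Pcna (-0.37 ± 0.20, adjusted p = 0.247) or Ccne1 (-1.30 ± 0.59, adjusted p = 0.150).

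Within Epcam cells the members followed a crypt-type gate. Crypt-type cells carried at least 2 UMIs over Lgr5, Ascl2, Smoc2, Axin2, Rgmb, Slc12a2, Sox9 and Cd44, genes of the crypt base or of Wnt signalling, and at most 1% of UMIs in 8 genes of surface colonocytes. None of these genes is a member. The gate held 469, 430 and 291 cells in the BT mutant, BT WT and PBS libraries, or 11.8%, 9.45% and 21.3% of Epcam cells. Their median depth was 15247, 11713 and 14847 UMIs, against 3413, 4109 and 2126 UMIs in the other Epcam cells. These crypt-type cells held 89.2%, 94.0% and 95.2% of the G2/M UMIs of all Epcam cells and 69.4%, 65.5% and 72.4% of the S UMIs, with 31.7%, 29.6% and 39.7% of all UMIs of the class. G2/M members reached 473, 645 and 657 CPM in crypt-type cells and 26.6, 17.2 and 21.7 CPM in the other Epcam cells. Ube2c overlaps Tnnc2 and Cdc20 overlaps Elovl1 on the opposite strand, and whether the counting used strand is not given in the sources used here.

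Of the 40 members, all of which passed the filter here, 38 were higher in crypt-type cells and 0 lower, by edgeR on the sums of the 3 libraries (0 were lower at an unadjusted p under 0.05 and 0 by DESeq2). Of 13426 genes tested, 27.1% were higher and 26.4% lower. A member with few UMIs in the other Epcam cells could pass the filter through the crypt-type sums, and could then hardly be called lower. Over the BT WT and PBS libraries, 34 of the 40 members had at least 20 UMIs in the other Epcam cells. The median log2 fold change was 4.47 over the 20 G2/M members, 2.63 over the 15 S members and 1.76 over the 5 general members, against 0.02 over all genes. Ube2c had 47.3, 70.5 and 54.9 CPM in crypt-type cells of the BT mutant, BT WT and PBS libraries and 1.09, 1.03 and 0.876 CPM in the others (5.39 ± 0.22, adjusted p = 4.81e-05). Cdc20 had 32.1, 36.8 and 29.9 CPM in crypt-type cells and 0.484, 0.493 and 0.876 CPM in the others (5.39 ± 0.29, adjusted p = 4.86e-05). Cenpf had 43.9, 67.2 and 56.9 CPM in crypt-type cells and 1.53, 0.985 and 0.637 CPM in the others (5.25 ± 0.32, adjusted p = 5.77e-05). For these 3 genes the lowest crypt-type value was far above the highest value of the other Epcam cells. Mki67 gave 4.53 ± 0.33 (adjusted p = 7.55e-05), Top2a 3.89 ± 0.34 (adjusted p = 0.000149) and Ccne1 2.43 ± 0.37 (adjusted p = 0.00135).

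Pcna and Rrm2 were the members that did not pass. Pcna had 83.7, 69.9 and 92.2 CPM in crypt-type cells and 51.2, 46.0 and 84.6 CPM in the other Epcam cells (0.06 ± 0.18, adjusted p = 0.816 by edgeR). It was present in the cells outside the gate, where G2/M members were low. By CPM it was higher in crypt-type cells of each library. The fold change is smaller than these CPM values give, since the test scales the sums by TMM and printed CPM values are not scaled so. Rrm2, a subunit of the enzyme that makes deoxynucleotides, had 3.91, 3.41 and 5.57 CPM in crypt-type cells and 1.25, 0.698 and 5.41 CPM in the others (0.81 ± 0.46, adjusted p = 0.167). Its partner Rrm1 had 25.7, 21.1 and 21.5 CPM in crypt-type cells and 4.08, 4.06 and 3.98 CPM in the others, without overlap, but reached 40.9, 41.6 and 31.6 CPM in fibroblast marker cells. With every cell thinned to 1000 UMIs, 15 members instead of 38 passed, and Ccne1 was not among them. The share of all genes after thinning is not given.

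**Figure D3:**
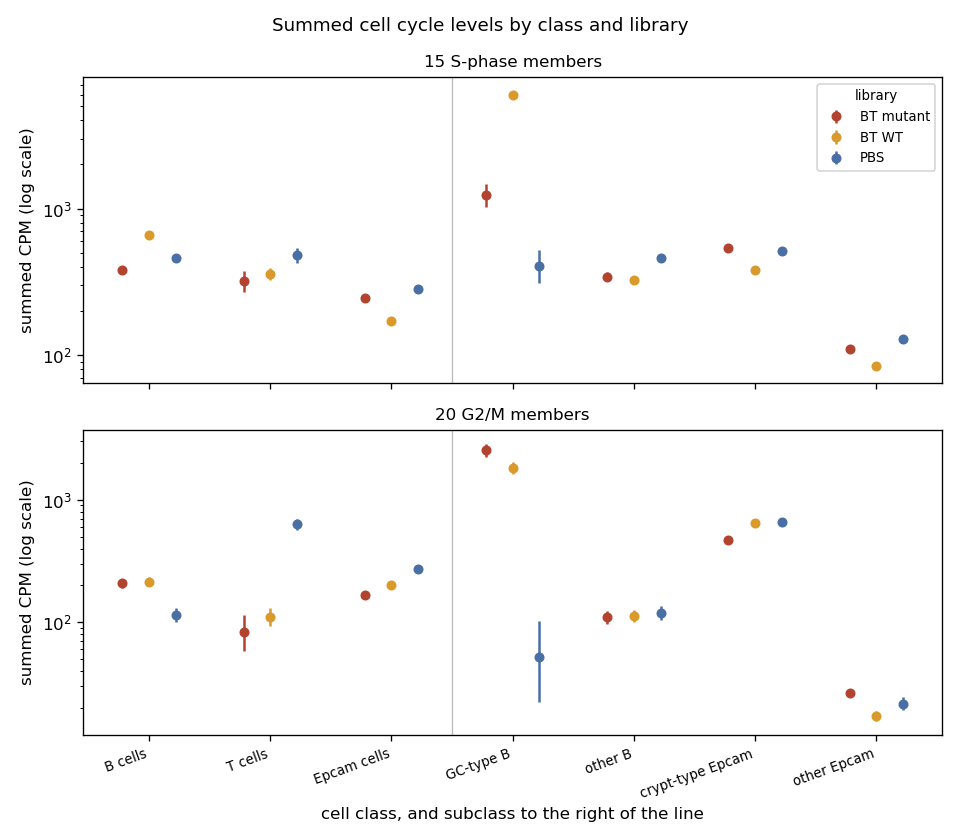
Summed level (CPM, log axis) of the 15 S members and of the 20 G2/M members in each class and subclass of the BT mutant, BT WT and PBS libraries, with exact Poisson intervals for counting error as bars. G2/M members lie at 473 to 657 CPM in crypt-type cells and at 17.2 to 26.6 CPM in the other Epcam cells, and GC-type B cells lie at 2539, 1815 and 51.6 CPM.

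In B cells of the colonized mice about 1 in 2 G2/M UMIs lay in a few cells with germinal centre genes. The gate, at least 2 UMIs over 9 genes such as S1pr2 and Bcl6 and called GC-type here, held 17, 26 and 25 cells in the BT mutant, BT WT and PBS libraries, or 2.07%, 2.53% and 4.30% of B cells. They held 49.3%, 50.7% and 3.27% of the G2/M UMIs of all B cells and 13.2%, 54.1% and 6.45% of the S UMIs, with 4.04%, 6.01% and 7.28% of all UMIs of the class. In PBS neither share lay above the share of all UMIs. G2/M members summed to 2539, 1815 and 51.6 CPM in GC-type cells and to 110, 113 and 120 CPM in the other B cells. Few cells carried the sums of the colonized mice. In the BT mutant library 181 of the 248 G2/M UMIs of GC-type cells (73.0%) lay in 1 cell and 5 of the 17 cells held any, and in BT WT 5 cells held 94.1%. The other B cells lay close together over the 3 libraries, while the GC-type cells lay far above them in both colonized libraries and below them in PBS. Mki67 had 184, 226 and 0 CPM in GC-type cells (18, 42 and 0 UMIs) against 3.45, 4.13 and 2.53 CPM in the other B cells. Ube2c had 410, 129 and 0 CPM, and Pclaf, a partner of the sliding clamp, had 102, 463 and 0 CPM in GC-type cells.

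By myeloid markers the GC-type cells of PBS mice went against the gate's name. Myeloid markers (Lyz2, Cd68, Csf1r, Adgre1 and Itgam) summed to 10.2, 10.8 and 5206 CPM in GC-type cells of the BT mutant, BT WT and PBS libraries, with 1, 2 and 5 of the 5 genes present. Plasma cell markers summed to 942, 4497 and 148 CPM there, with 3, 5 and 2 of 5 present, and the 9 gating genes to 1300, 786 and 406 CPM. Fibroblast markers summed to 2447, 1249 and 2587 CPM in GC-type cells of the BT mutant, BT WT and PBS libraries. In the other B cells they summed to 199, 267 and 214 CPM. The part of these other transcripts in the values was not tested.

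The edgeR test over the 3 libraries passed 16 of the 40 members through its filter, of which 1 was a G2/M member, and called 7 higher in GC-type cells and 0 lower (0 also at an unadjusted p under 0.05 and by DESeq2). Of 8010 genes, 3.92% were higher and 1.34% lower. Stmn1, which destabilizes microtubules, had 440, 743 and 32.3 CPM in GC-type cells of the BT mutant, BT WT and PBS libraries and 15.1, 33.4 and 33.4 CPM in the other B cells (3.36 ± 0.61, adjusted p = 0.00259). Mcm5 had 123, 91.6 and 12.9 CPM in GC-type cells and 7.76, 9.98 and 15.2 CPM in the others (2.47 ± 0.62, adjusted p = 0.0256). Both overlapped, and the PBS cells of the gate lay below the PBS cells outside it. Mcm3 had 154, 210 and 32.3 CPM in GC-type cells and 18.1, 19.6 and 23.8 CPM in the others (2.36 ± 0.47, adjusted p = 0.00541), without overlap. The other higher members were Hmgb2, Rrm1, H2afz and Tuba1b, while Pcna gave 0.69 ± 0.32 (adjusted p = 0.286). Without the PBS library 32 members passed, without BT WT 0 and without the BT mutant library 3. Without the 5% of cells with most UMIs 0 passed. Shares of all genes under these alternatives are not given.

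Single cells carried much of these sums, and a cell is not a replicate. In the PBS T cells 331 of 394 G2/M UMIs (84.0%) lay in 1 cell with Cd8 transcripts and 33867 UMIs, and without it the G2/M level was 107 CPM, against 631 CPM with it. In B cells of the BT mutant library 181 of 503 G2/M UMIs (36.0%) lay in 1 cell. In B cells of BT WT mice 5 cells held 52.3% of the S UMIs. In Epcam cells of PBS mice the cell with most S UMIs held 724, of which 49 were not histone transcripts. Whether these cells are doublets was not tested.

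**Figure D4:**
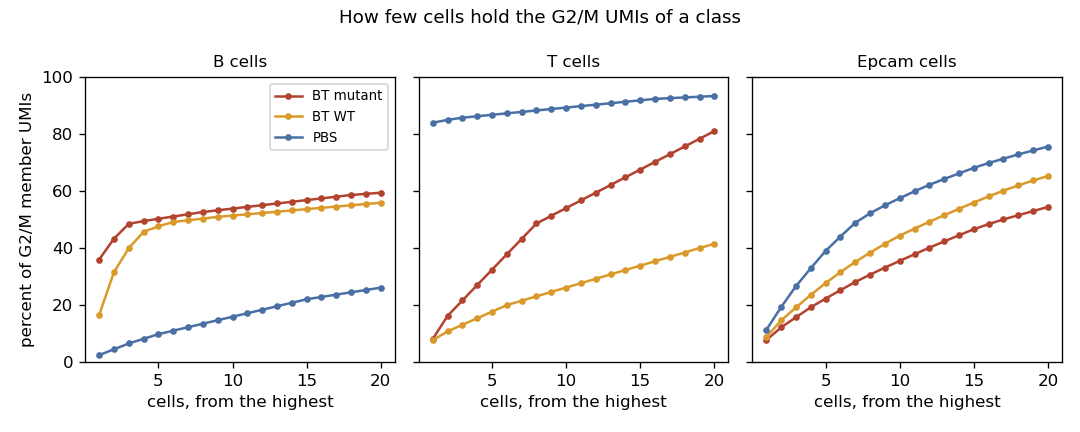
Cumulative share (percent) of the G2/M UMIs of B, T and Epcam cells in each library, against the number of cells counted from the one with the most such UMIs. The PBS line starts at 84.0% with 1 cell in T cells and at 2.45% in B cells.

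The share of cells with members followed the sums only in part. A cell was called cycling-marked when it held at least 3 UMIs over the 35 S and G2/M members after thinning to 1000 UMIs. Cells under 1000 UMIs were left out, 24, 27 and 11 B cells, 4, 2 and 2 T cells and 189, 140 and 326 Epcam cells of the BT mutant, BT WT and PBS libraries. Cycling-marked cells made up 2.63%, 2.30% and 3.15% of B cells, 1.77%, 1.42% and 2.80% of T cells and 1.58%, 0.862% and 3.07% of Epcam cells. The exact 95% intervals of B cells spanned 1.64% to 3.99%, 1.46% to 3.42% and 1.88% to 4.94%, and those of Epcam cells 1.21% to 2.03%, 0.611% to 1.18% and 2.11% to 4.30%. The order of the Epcam shares depended on the cell filter. At a mitochondrial limit of 10% they were 4.87%, 3.06% and 4.65%, with the BT mutant library no longer below PBS. Without thinning the shares were 15.9%, 15.5% and 32.5% of B cells, 18.8%, 29.6% and 42.2% of T cells and 15.8%, 8.44% and 30.6% of Epcam cells. Fibroblast marker cells gave 0 of 271 (up to 1.11%), 0.658% and 1.19%, at median depths of 5748, 7080 and 8927 UMIs before thinning, against 2729, 2802 and 3382.5 UMIs in B cells and 3678, 4275 and 5544 UMIs in Epcam cells.

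B cells with naive markers, which should not divide, were marked at 1.98%, 1.85% and 3.80% in the BT mutant, BT WT and PBS libraries, at median depths of 2737, 2809 and 3372 UMIs. They made up 74.3%, 68.7% and 73.0% of all B cells, so the share of all B cells is not independent of this background, and it is not read as division. GC-type cells were marked at 17.6% (3.80% to 43.4%), 19.2% (6.55% to 39.4%) and 4% (0.101% to 20.4%), on 3, 5 and 1 marked cells. With a mark of at least 2 UMIs over the 19 G2/M members other than Cenpa, added after these values were seen, 0.752%, 0.798% and 0% of B cells passed (0 of 571 PBS cells, which allows up to 0.525%), 0.331%, 0.427% and 0% of naive-marker B cells, and 1.51%, 0.817% and 2.78% of Epcam cells. Crypt-type cells were marked at 9.81%, 7.71% and 7.99%, with intervals that overlapped between the libraries (7.27% to 12.9%, 5.37% to 10.7% and 5.13% to 11.7%). In the first mark, more G2/M than S UMIs were found in 35 of 60, 26 of 38 and 23 of 32 marked Epcam cells, while more S UMIs were found in 16 of 21, 20 of 23 and 16 of 18 marked B cells. The marked Epcam cells had medians of 21533.5, 32508.5 and 29100 UMIs before thinning and the marked B cells 2536, 2919 and 3224.5.

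Cells were also marked by genes outside the 40. The mark asked for at least 2 thinned UMIs over 33 other replication and mitosis genes, a choice made after the data were seen, and marked cells were compared with cells holding 0 such UMIs. It caught 5.89%, 6.29% and 6.83% of B cells, 2.35%, 1.497% and 4.31% of Epcam cells and 2.21%, 5.26% and 2.38% of fibroblast marker cells in the BT mutant, BT WT and PBS libraries. The part of that background in the B-cell ratios below was not tested. In Epcam cells Mki67 was 29.1, 19.5 and 23.8 times as high in marked cells of the BT mutant, BT WT and PBS libraries as in unmarked ones, Top2a 26.8, 32.8 and 27.2 times, and Cenpa 21.8, 29.6 and 21.5 times. Pcna was 1.57, 1.99 and 1.33 times as high there. In B cells Cenpa was 2.74, 1.46 and 1.82 times as high in marked cells, with 77.0, 76.2 and 86.1 CPM in unmarked B cells against 4.69, 5.56 and 6.18 CPM in unmarked Epcam cells. Cenpa transcripts were present in B cells that held 0 thinned UMIs of these division genes at more than 10 times the level of unmarked Epcam cells. Mki67 in marked B cells was 13.4 and 33.3 times as high in the BT mutant and BT WT libraries and was not seen in marked B cells of the PBS library (0 against 4 UMIs). These ratios carry no test, since cells of 1 library are not replicates.

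**Figure D5:**
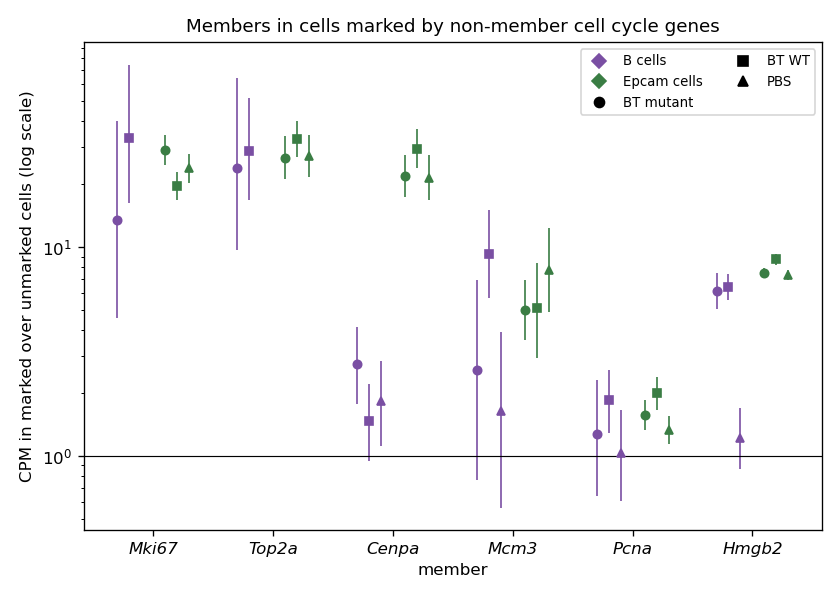
Ratio (log axis) of the CPM of 6 members in cells marked by non-member division genes over that in unmarked cells, for B and Epcam cells of the BT mutant, BT WT and PBS libraries, with exact intervals for counting error as bars (a ratio of 0 is not drawn). Cenpa lies at 1.46 to 2.74 in B cells and 21.5 to 29.6 in Epcam cells, and Pcna lies at 1.04 to 1.85 in B cells and 1.33 to 1.99 in Epcam cells.

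Other genes of the cycle were counted from lists of 20 G1 and checkpoint genes, 11 transcription factors, 15 replication genes and 18 mitosis genes. In crypt-type over other Epcam cells 17 of 18 mitosis genes were higher and 1, Pttg1, the anaphase inhibitor securin, was lower, and 12 of 15 replication genes were higher and 0 lower (edgeR). Hmmr, a spindle protein gene, gave 5.53 ± 0.31 (adjusted p = 4.86e-05). Of the factors 7 were higher, among them E2f8, a repressor of E2F targets (4.07 ± 0.36, adjusted p = 0.000164), and Foxm1, an activator of G2/M genes (3.36 ± 0.48, adjusted p = 0.00106), and 1 was lower. Of the G1 and checkpoint genes 9 were higher, such as cyclin D1 (Ccnd1, 3.31 ± 0.19), and 7 lower, such as the cyclin kinase inhibitor gene Cdkn1a (-2.24 ± 0.24), of 19 tested. Over all genes of this comparison 27.1% were higher and 26.4% lower.

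In B over Epcam cells 7 of the 12 replication genes tested were higher and 2 lower, and of the 11 mitosis genes tested 1 was higher and 2 lower. Over all genes 30.9% were higher and 37.0% lower, and the mitosis counts lie below both shares. The licensing factor gene Cdt1 gave 2.87 ± 0.24 and the polymerase delta gene Pold1 3.10 ± 0.24, both higher, while Hmmr was lower (-2.10 ± 0.50, adjusted p = 0.00113 by edgeR). The D cyclins differed between the classes. Ccnd3 was higher (2.31 ± 0.17) and Ccnd1 lower (-3.001 ± 0.32) in B cells, and Ccnd3 was higher (3.01 ± 0.18) and Ccnd1 lower (-3.94 ± 0.53) in T cells over Epcam cells. Myc, a growth factor-induced regulator, was 3.32 ± 0.24 higher on the log2 scale in B cells. In T over Epcam cells 5 of 12 replication genes were higher and 1 lower, and 2 of 11 mitosis genes were higher and 1 lower. Over all genes 26.4% were higher and 34.5% lower, and the mitosis counts lie below both shares here too.

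Between the libraries, Epcam cells carried lower G2/M levels in both groups of colonized mice than in PBS mice, and lower S levels in BT WT mice. In BT WT over PBS the CPM ratio was 0.611 for S members (exact interval 0.590 to 0.634) and 0.743 for G2/M members (0.717 to 0.769). In BT mutant over PBS it was 0.875 for S members (0.981, 0.947 to 1.02, without the top cell of each library, and a median log2 ratio of -0.000493 over them, on the scale given below) and 0.615 for G2/M members (0.593 to 0.637), and in BT mutant over BT WT 1.43 (1.39 to 1.48) and 0.827. The intervals cover counting error only and do not hold the spread between mice or the clumping of UMIs in cells. All comparisons with PBS share that library. The median log2 ratio over the 40 members, of CPM plus a pseudocount of 10, was -0.23 in BT WT over PBS, with 0 members at least 1.5-fold higher and 2 lower on that scale, against 5.05% and 4.25% of all genes. It was -0.24 in BT mutant over PBS, with 0 members higher and 1 lower, against 2.08% and 2.7% of genes, and -0.00477 in BT mutant over BT WT, with 1 higher and 0 lower, against 2.55% and 2.36%. The median over all genes was -0.00119, -0.00547 and -0.0106 in these comparisons, and 1 or 2 of 40 members is a share near that background.

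Single members were ranked on the scale of CPM plus 10, which holds back members of low level, and plain CPM ratios are printed. On that scale the highest member in BT WT over PBS in Epcam cells was Ube2c, with 21.6 CPM in BT WT and 22.3 CPM in PBS (ratio 0.968, interval 0.861 to 1.09), and the lowest was Hist1h2ap, with 43.3 and 77.7 CPM (0.557, 0.519 to 0.598). By plain CPM Rrm2 was lowest, with 1.503 and 5.47 CPM (0.274, 0.194 to 0.384). Hist1h2ap was highest in BT mutant over BT WT, with 70.4 CPM in the mutant library and 43.3 CPM in BT WT (1.63, 1.53 to 1.73), and Nusap1, a spindle protein gene, was lowest, with 4.22 and 7.63 CPM (0.553, 0.450 to 0.677). By plain CPM Mcm3 was highest there, with 8.71 and 3.70 CPM (2.35, 1.91 to 2.91), and Ccne1 gave 2.14 (1.40 to 3.33) on 74 and 33 UMIs. Mcm3 was highest on both scales in BT mutant over PBS, with 8.71 and 5.09 CPM (1.71, 1.37 to 2.15), and Mki67 lowest on the pseudocount scale, with 24.7 and 45.3 CPM (0.545, 0.497 to 0.598), where Top2a gave 0.542 (0.474 to 0.619). By plain CPM Rrm2 was lowest again, with 2.09 and 5.47 CPM (0.383, 0.282 to 0.516). Pcna gave 0.605 in BT WT over PBS, 1.16 in BT mutant over BT WT and 0.702 in BT mutant over PBS.

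By summed CPM crypt-type cells alone showed a smaller difference from PBS. The median log2 ratio of the G2/M members in BT mutant over PBS was nearly the same, -0.313 in crypt-type and -0.320 in all Epcam cells. Their G2/M members gave 0.983 (0.948 to 1.02) in BT WT over PBS, 0.721 in BT mutant over PBS and 0.733 in BT mutant over BT WT. Their S members gave 0.741, 1.05 and 1.42. In the Epcam cells outside the gate the G2/M members gave 0.794 (0.680 to 0.929) in BT WT over PBS, 1.23 (1.06 to 1.42) in BT mutant over PBS and 1.55 (1.37 to 1.75) in BT mutant over BT WT. Crypt-type cells made up 9.45% of Epcam cells in the BT WT library and 21.3% in the PBS library, and the part of that share in the Epcam sums was not tested. Of the 40 members 0 were at least 1.5-fold higher and 0 lower in BT WT over PBS on the scale of CPM plus 10, against 0.864% and 1.91% of all genes. In BT mutant over BT WT 3 were higher and 1 lower, against 1.12% and 1.82%, and in BT mutant over PBS 1 was higher and 4 lower, against 0.927% and 2.92%. The 3 members higher over BT WT were S members and the 4 lower over PBS were G2/M members.

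B cells of colonized mice carried more G2/M transcripts than those of PBS mice. The CPM ratio of the G2/M members was 1.87 (1.61 to 2.18) in BT WT over PBS, 1.81 (1.55 to 2.12) in BT mutant over PBS and 0.967 (0.860 to 1.09) in BT mutant over BT WT. In the B cells outside the GC-type gate it was 0.941, 0.917 and 0.974, each with an interval that includes 1. Without the 1 B cell per library with most S and G2/M UMIs it was 1.59 in BT WT over PBS, 1.18 (0.998 to 1.40) in BT mutant over PBS and 0.742 in BT mutant over BT WT. The S members gave 1.45, 0.828 and 0.571 for the same comparisons, and 1.17, 0.826 and 0.707 without that cell. Outside the GC-type gate the S members gave 0.702 (0.641 to 0.770), 0.743 (0.675 to 0.818) and 1.06 (0.961 to 1.16). Without the histone genes the S ratio of BT WT over PBS was 1.09 (0.982 to 1.20). Plasma cell markers in B cells, 1018, 1585 and 251.1 CPM in the BT mutant, BT WT and PBS libraries with 5, 5 and 3 of 5 genes present, moved in the same direction as the G2/M members, and their part was not tested.

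In BT WT over PBS B cells, 28 members had at least 20 UMIs, of which 11 were at least 1.5-fold higher and 0 lower on the scale of CPM plus 10, against 1.06% and 4.97% of all genes. The median was 0.54 over these members and -0.11 over all genes. Of 25 members in BT mutant over PBS, 7 were higher and 2 lower, against 2.23% and 8.99% of genes, with medians of 0.21 and -0.11. Of 32 members in BT mutant over BT WT, 1 was higher and 8 lower, against 1.76% and 3.12% of genes, with medians of -0.24 and 0.01. With cells thinned to 1000 UMIs the medians of the comparisons with PBS turned to -0.0842 in BT WT and -0.27 in BT mutant. On that scale Hist1h1b was highest in BT WT over PBS, with 203 UMIs and 65.7 CPM in BT WT and 20 UMIs and 9.39 CPM in PBS (ratio 6.998, 4.41 to 11.7), and Pcna was lowest, with 98.4 and 123 CPM (0.800, 0.676 to 0.947). By plain CPM Pclaf was highest, with 86 UMIs in BT WT and 2 in PBS (29.6, 7.96 to 249), and Mki67 had 54 and 5 UMIs (7.45, 3.001 to 23.9). Ube2c was highest on the scale of CPM plus 10 in BT mutant over PBS, with 43 and 2 UMIs (19.0, 4.94 to 162), where Cenpf was highest by plain CPM, with 33 UMIs and 1 UMI (29.1, 4.87 to 1184), and Pcna was lowest, with 66.6 and 123 CPM (0.542, 0.442 to 0.662). Cenpf was highest in BT mutant over BT WT, with 13.7 and 3.88 CPM (3.52, 1.77 to 7.48), and Pclaf lowest on the scale of CPM plus 10, with 4.55 and 27.8 CPM (0.164, 0.0787 to 0.308), where Aurkb gave 0.142 (0.0160 to 0.594) on 2 and 18 UMIs.

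In T cells the G2/M level of the PBS library lay mostly in 1 Cd8 cell. The G2/M ratio was 0.175 (0.143 to 0.214) in BT WT over PBS and 0.131 (0.0911 to 0.184) in BT mutant over PBS, and became 0.969 (0.708 to 1.34) and 0.768 (0.495 to 1.18) without the top cell of each library. It was 0.748 (0.505 to 1.09) in BT mutant over BT WT. The S ratios were 0.746, 0.666 and 0.893 for these comparisons in the same order. Of 23 members with at least 20 UMIs in BT WT over PBS, 0 were at least 1.5-fold higher and 13 lower, against 3.08% and 10.3% of genes. Of 19 in BT mutant over PBS, 0 were higher and 13 lower, against 6.22% and 15.5%, and of 15 in BT mutant over BT WT, 0 were higher and 1 lower, against 8.69% and 8.23%. The medians were -0.76, -0.76 and -0.15 over the members and -0.11, -0.08 and 0.04 over all genes, and without the top cells -0.10 and -0.25 in the comparisons with PBS. Birc5, survivin, a subunit of the chromosomal passenger complex, was lowest in both comparisons with PBS on the scale of CPM plus 10, with 0, 2 and 36 UMIs in the BT mutant, BT WT and PBS libraries. Mcm4 was highest, at 1.26 (0.688 to 2.43) in BT WT over PBS and 1.22 (0.553 to 2.68) in BT mutant over PBS, and in BT mutant over BT WT Rrm1 was highest (1.69, 0.645 to 4.19) and Mcm5 lowest (0.438, 0.0827 to 1.501). Each of these 4 intervals includes 1.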

How the data were processed

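Droplet single-cell RNA libraries of colon were made with 10x 3′ version 3 chemistry, per the labels, and 1 library stands for each group. The deposited matrices hold raw UMI counts per gene and barcode, which per the file headers the authors produced with Cell Ranger 5.0.0. STAR and the mm10 build are named in the submitters' processing notes. No normalization had been applied. A barcode was kept from 300 genes upward when mitochondrial UMIs made up at most 25%, and was then gated by marker genes, and no doublet caller was run. UMIs were summed per library and class and scaled to CPM over all UMIs of the sum. Classes were compared with edgeR 4.0.16 in R 4.3.3 (quasi-likelihood fit, TMM scaling, filterByExpr, library as a term, Benjamini-Hochberg adjustment over all genes, threshold 0.05); SE is the log2 fold change divided by the square root of F. DESeq2 1.42.0 was an alternative. The library term takes up differences that all classes of a library share. Since nothing says that samples come from separate animals, p-values measure how the class difference varied over these 3 libraries, which differ in treatment. Libraries were compared without a test, as ratios of CPM with exact 95% binomial intervals, and by medians over members with at least 20 UMIs; shares carry exact Clopper-Pearson intervals, counts Poisson intervals, and a count of 0 allows up to 3 counts. All cover counting error only. Python 3.11.15 with numpy 2.4.6, scipy 1.17.1 and pandas 2.3.3 was used.

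On simulated counts at the real depths, the B over Epcam fit recovered 45% of genes changed 2-fold and 100% of those changed 4-fold. The fits for T over Epcam, B over T, crypt-type and GC-type cells recovered 36%, 32%, 38.4% and 28% at 2-fold and 92%, 95%, 98.9% and 91% at 4-fold. The simulated counts had a fixed dispersion and no library effect, and only genes above a limit of expected count were changed. These shares therefore do not describe members with few UMIs or with UMIs held by few cells. The members, the other gene lists and the gates were chosen with earlier results of these data known. Named with values were, in each class, the 3 members with the highest summed CPM, in each class test up to 3 called members per direction by fold change, in each library comparison the highest and lowest member among those with at least 20 UMIs, and always Mki67, Top2a, Pcna and Ccne1; other names were chosen after their values were seen. Alternatives concerned the tool, scaling, filter, library term, each library, cell filters, gates, thinning and the deepest cells.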

Additional observations from a re-analysis of the deposited data

Results flagged for a closer look

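Ratios between libraries differed in direction or size between classes. In BT WT over PBS the S members stood at 0.611 in Epcam cells, 1.45 in B cells and 0.746 in T cells, and the G2/M members at 0.743 in Epcam cells, 1.87 in B cells and 0.175 in T cells. In BT mutant over BT WT the S members stood at 1.43 in Epcam cells and 0.571 in B cells. In BT mutant over PBS the G2/M members stood at 0.615 in Epcam cells, 1.81 in B cells and 0.131 in T cells. The difference between the classes was not tested, since each group has 1 library. Without the 1 cell per class and library with most S and G2/M UMIs, the T-cell G2/M ratios were 0.768 in BT mutant over PBS and 0.969 in BT WT over PBS, and the B-cell G2/M ratio of BT mutant over PBS was 1.18. In the B cells outside the GC-type gate the S ratios were 0.702 in BT WT over PBS and 1.06 in BT mutant over BT WT. The G2/M ratios there were 0.941 in BT WT over PBS and 0.917 in BT mutant over PBS.

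Cells outside every gate, which enter no comparison, were cycling-marked at 1.89%, 1.90% and 3.17% in the BT mutant, BT WT and PBS libraries. Fibroblast marker cells gave lower values (0 of 271 cells, which allows up to 1.11%, then 0.658% and 1.19%, each from 1 marked cell). The exact intervals overlapped in each library, at 1.06% to 3.09%, 1.11% to 3.02% and 2.10% to 4.58% outside the gates. Those of fibroblast marker cells were 0% to 1.35%, 0.0167% to 3.61% and 0.0301% to 6.46%. B cells with naive markers gave 1.98%, 1.85% and 3.80%.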

How the results depend on the processing

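Counts of calls (limit 1.5 times), shares (limit their interval) and medians (limit the interval of the summed members) stayed within these limits under 194 alternatives and moved under 103. Of the values of named members, 834 stayed on their side, 51 moved without a test, 36 no longer passed, 9 newly passed and 19 turned in sign. The cause of these changes was not tested. Shares of all genes are given for the main fits only, so counts of members called under an alternative are not set against them. With 1 library left out in turn, members called ranged from 10 to 16 (higher) and 5 to 12 (lower) in B over Epcam cells, from 11 to 13 and 0 to 12 in T over Epcam cells, from 1 to 9 and 1 to 6 in B over T cells, from 38 to 39 (higher) in crypt-type cells and from 0 to 32 (higher) in GC-type cells. No paired analysis was possible because each group (BT mutant, BT WT and PBS) has 1 library. The class tests already compared classes within each library through the library term.

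At a mitochondrial limit of 10%, 7 members were higher and 19 lower in B over Epcam cells and 7 higher and 12 lower in T over Epcam cells. DESeq2 called 2 members lower in B over Epcam and 1 higher in B over T cells. Without the filter on low counts 15 were lower in B over Epcam, 5 lower in T over Epcam, 4 lower in B over T and 26 higher in GC-type cells. Without the library term 3 were lower in B over Epcam and 1 higher in B over T cells. Without the 5% of cells with most UMIs 1 was lower in B over Epcam, 0 lower in T over Epcam, 1 higher in B over T and 0 higher in GC-type cells. With cells thinned to 1000 UMIs 0 were lower in B over Epcam, 0 lower in T over Epcam, 15 higher in crypt-type and 3 higher in GC-type cells.

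Cycling-marked shares moved with the rule for the mark. With at least 2 UMIs they were 10.4%, 9.48% and 12.1% of B cells, 7.96% and 8.16% of T cells (BT mutant and BT WT) and 2.75%, 1.996% and 5.18% of Epcam cells of the BT mutant, BT WT and PBS libraries. With at least 5 UMIs they were 0.251%, 0.699% and 0.175% of B cells, 0% of BT WT T cells and 0.951%, 0.454% and 1.44% of Epcam cells. Not thinned, they were 15.9%, 15.5% and 32.5% of B cells, 18.8%, 29.6% and 42.2% of T cells and 15.8%, 8.44% and 30.6% of Epcam cells. With the G2/M mark without Cenpa they were 0.752%, 0.798% and 0% of B cells and 0% and 0.355% of T cells (BT mutant and BT WT). In Epcam cells they were 4.87%, 3.06% and 4.65% at a mitochondrial limit of 10% (0.360% of BT WT T cells), 1.17% and 1.82% without a limit (BT mutant and PBS), and 0.970%, 0.221% and 2.09% without the 5% of cells with most UMIs.

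Median log2 ratios moved as follows. In Epcam cells BT WT over PBS was -0.45 with a pseudocount of 1, -0.58 thinned, -0.29 at a mitochondrial limit of 10%, -0.14 without one, -0.32 with stricter gates and -0.56 without the deepest 5% of cells. BT mutant over PBS was -0.48, -0.37, -0.46, -0.11, -0.39 and -0.17 under these alternatives. BT mutant over BT WT was 0.21 thinned, -0.13 at 10%, -0.0477 with stricter gates and 0.37 without the deepest cells. In B cells BT WT over PBS was 0.81 with a pseudocount of 1, 0.37 from at least 1 UMI, -0.0842 thinned, 0.00471 without the deepest cells and 0.28 without the top cell. BT mutant over BT WT was -0.15 from at least 1 UMI and 0.0525 without the deepest cells. BT mutant over PBS was 0.37 with median-ratio scaling, 0.31 with a pseudocount of 1, -0.27 thinned, 0.28 with stricter gates and -0.0511 without the top cell. In T cells BT WT over PBS was -0.63 with median-ratio scaling, -0.19 thinned, -0.86 with stricter gates and -0.10 without the top cell, and BT mutant over PBS was -0.34 thinned, -0.93 with stricter gates and -0.25 without the top cell.

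Some single members turned in sign. On the log2 scale Top2a in B over Epcam cells ranged from -0.98 to 0.43 with 1 library left out (the highest without PBS) and was 0.0497 without a mitochondrial limit and 0.67 without the deepest cells. In T over Epcam cells it ranged from -0.59 (without PBS) to 0.98 and was -0.17 at 10%. Mki67 in T over Epcam cells was 0.40 without the deepest cells. In B over T cells Mki67 ranged from -2.12 to 0.62 and Top2a from -1.96 to 1.02 with 1 library left out, both highest without PBS. Pcna in crypt-type cells was -0.00293 without the filter, -0.14 without the deepest cells and from -0.0794 (without the BT mutant library) to 0.27 (without PBS) with 1 library left out, at -0.0338 without BT WT, and in GC-type cells -0.61 thinned. Cenpf in B cells of BT mutant over BT WT was -0.0552 thinned. Without the top cell, T cells of BT WT over PBS gave Birc5 0.00358, Mki67 0.68 and Top2a 0.80, and those of BT mutant over PBS gave Mki67 0.54 and Top2a 0.0703. At these cell numbers a count of 0 would allow a cycling-marked share of up to 17.6% of the GC-type cells of the BT mutant library and 2.80% of PBS T cells.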
